A study of Mus musculus with 2 samples.

Results

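The Hox gene clusters of mammals carry miRNA genes between their protein-coding genes, and miR-10 and miR-196 are the most conserved of them. Known mature miRNAs of the deposited table were chosen by name as any arm of mir-10a, mir-10b, mir-196a or mir-196b, which gave 7 of 717 miRNAs analysed. These were mmu-miR-10a-5p, mmu-miR-10a-3p, mmu-miR-10b-5p, mmu-miR-10b-3p, mmu-miR-196a-5p, mmu-miR-196b-5p and mmu-miR-196b-3p, written below without the species prefix. All 7 had reads in TAMs and in SMs. The 3p arms of the mir-196a hairpins were not analysed here.

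Small RNA was sequenced from tumor-associated macrophages (TAMs) and from spleen macrophages (SMs) of naïve mice, both of strain BALB/c, as 1 library per group. TAMs came from tumors of 4T1, a metastatic mouse mammary carcinoma cell line, collected 3 weeks after injection into the mammary fat pad of female mice 8 weeks old, and were taken up with anti-CD11b beads after red blood cell lysis. CD11b is also carried by monocytes, neutrophils and NK cells. The paper reports a check of the sorted cells by flow cytometry, read as the share of live CD11b-positive cells, so that check rested on CD11b too. The sources used here give an age range for the purchased mice of the study but none for the spleen donors separately. They do not give how many mice made each library, or how macrophages were selected from spleen. With 1 library per group no difference has a replicate check, no p-value is given, and tumor, tissue and cell selection cannot be told apart.

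A miRNA is cut from a hairpin that can yield a 5p and a 3p arm. One arm is usually kept in the silencing complex, where bases 2 to 8, the seed, pair with target mRNAs, and the other is mostly degraded. miR-10 lies beside the Hox genes of paralog group 4, and is known to act on HOXD10 in human breast cancer cells and on Hoxb genes in zebrafish. miR-196 lies beside the posterior genes around group 9 and directs cleavage of Hoxb8 mRNA in mouse embryos. Hox genes themselves are transcribed in blood stem and progenitor cells and are turned down in most mature blood cells.

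The mature sequences are from RefSeq on GRCm38.p6 and the same as those in the deposited table for every member. Those of all members but miR-196b-3p are shown with the seed in capitals because the comparison turns on how alike the paralogs are.
miR-10a-5p: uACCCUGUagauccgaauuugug
miR-10b-5p: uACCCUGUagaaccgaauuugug
miR-10a-3p: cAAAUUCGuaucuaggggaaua
miR-10b-3p: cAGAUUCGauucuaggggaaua
miR-196a-5p: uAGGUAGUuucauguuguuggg
miR-196b-5p: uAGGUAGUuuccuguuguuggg

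The 5p arms of the miR-10 paralogs shared a seed and differed by a single substitution outside it, U12A, counted from the 5′ end with the base of miR-10a-5p first. No other of the 717 miRNAs had the seed of miR-10a-5p and miR-10b-5p. The 5p arms of miR-196 also shared a seed that no other miRNA of the table had, and differed by A12C with the base of miR-196a-5p first. The 3p arms of miR-10 differed at 3 positions, A3G, U9A and A10U, of which A3G lies within the seed, so they had different seeds. Reads of paralogs with a single difference could be counted for either or for both, and no source used here states how such reads were assigned.

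Each hairpin was placed on GRCm38. Mir10a lies on the plus strand of chromosome 11 from 96317165 to 96317274, in no other annotated gene, 993 bp from Hoxb4 in the Hoxb cluster. Mir10b lies on the plus strand of chromosome 2 from 74726070 to 74726137, in introns of Hoxd3 and Hoxd4. Mir196b lies on the minus strand of chromosome 6 from 52230081 to 52230165, within an exon of noncoding transcripts of Hoxa9 and 1032 bp from Hoxa10. miR-196a-5p has more than one source. Mir196a-1 lies on the plus strand of chromosome 11 from 96265164 to 96265265, 6192 bp from Hoxb9, and Mir196a-2 on the plus strand of chromosome 15 from 102973350 to 102973434, in an intron of a noncoding transcript of Hoxc5 and 1457 bp from Hoxc10. Both encode the same 5p sequence, so its reads cannot be divided between Hoxb and Hoxc.

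The authors divided each count by a total of 13324721 reads for TAMs and 15422872 reads for SMs to give TPM, so 1 read was worth 0.0750 TPM and 0.0648 TPM. The counts of known miRNAs summed to 7333652 in the TAMs library and 10108834 in the SMs library. miR-486-5p and miR-3107-5p had near-equal counts, 17892 and 17678 in TAMs and 82588 and 81321 in SMs. If reads were counted for more than 1 miRNA, these summed counts exceed the number of distinct reads. Intervals below are 95% intervals for counting error only, and PCR copies are not independent molecules. Over all 264 miRNAs of at least 10 TPM in either library, 24.2% were at least 2-fold higher in TAMs on the scale of log2(TPM + 1). By the same measure 32.6% were at least 2-fold lower. Of the miRNAs listed as markers of epithelial cells, 7 of 7 were above 2-fold higher in TAMs. Their summed level was 1897 TPM against 284 TPM, and none was at 0 in either library. All 4 arms of mir-142, a leukocyte hairpin, and mir-223, a myeloid hairpin, were lower in TAMs by over 2-fold. Together they had 7752 TPM against 34561 TPM and were abundant in both libraries. The largest part was miR-142-5p, with 5729 TPM against 21578 TPM, so this sum is not specific to myeloid cells. For mir-223 alone the ratio was 0.170 for miR-223-3p and 0.348 for miR-223-5p. All 4 markers of red blood cells and both of lymphocytes were also lower by over 2-fold. Of 6 stromal markers, 4 reached 10 TPM in either library and 2 of these were higher by over 2-fold, miR-199a-3p and miR-199a-5p. The most abundant stromal marker, miR-143-3p, had a ratio of 0.987, and miR-145a-5p one of 1.35. The stromal sum was 2618 TPM against 2453 TPM. Neither of the 2 endothelial ones passed 2-fold.

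The 4 miR-10 arms made up 25.3% of the summed miRNA counts in TAMs and 31.4% in SMs. The 3 miR-196 arms made up 0.0385% in TAMs and 0.00269% in SMs. By source, the reads of the 7 members came from mir-10a of the Hoxb cluster for 74.9% in TAMs and 97.9% in SMs, and from mir-10b of the Hoxd cluster for 25.0% in TAMs and 2.12% in SMs.

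The level of miR-10a-5p, of the Hoxb cluster, was 104415 TPM in TAMs, from 1391306 reads, and 201354 TPM in SMs, from 3105460 reads. It ranked first of all miRNAs in both libraries. Its TPM ratio, TAMs over SMs, was 0.519 (0.518 to 0.520), which is 1.93-fold lower in TAMs. In bulk RNA such as this, fewer cells of a type and less miRNA per cell cannot be told apart.

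The level of miR-10b-5p, of the Hoxd cluster, was 34827 TPM in TAMs, from 464055 reads, and 4361 TPM in SMs, from 67255 reads. It ranked 5th in TAMs and 25th in SMs. Its ratio was 7.99 (7.92 to 8.05), so the paralog with the same seed went the other way. The difference in level, TAMs minus SMs, was −96939 TPM for miR-10a-5p and 30466 TPM for miR-10b-5p. The summed miR-10 arms therefore had 139260 TPM against 205732 TPM, a ratio of 0.677 (0.676 to 0.678).

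The level of miR-196b-5p, of the Hoxa cluster, was 200.8 TPM in TAMs, from 2676 reads, and 16.8 TPM in SMs, from 259 reads. It ranked 93rd in TAMs and 199th in SMs, and its ratio was 11.96 (10.5 to 13.6). The level of miR-196a-5p, of Hoxb or Hoxc, was 10.8 TPM from 144 reads in TAMs and 0.648 TPM from 10 reads in SMs, with a ratio of 16.7 (8.81 to 35.5). Their intervals overlap, so the ratios of the miR-196 paralogs could not be told apart at this depth. Summed with the 3p arm of mir-196b, miR-196 had 212 TPM against 17.6 TPM, a ratio of 12.0 (10.6 to 13.7).

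The 3p arms were rare. The level of miR-10a-3p was 14.2 TPM from 189 reads in TAMs and 17.2 TPM from 265 reads in SMs, a ratio of 0.826 (0.681 to 0.999). miR-10b-3p had 3.53 TPM from 47 reads in TAMs and 0.0648 TPM from 1 read in SMs, and its ratio of 54.4 (9.30 to 2194) has a wide interval because of that 1 read. miR-196b-3p had 0.525 TPM from 7 reads in TAMs and 0.195 TPM from 3 reads in SMs, and the interval of its ratio of 2.70 (0.617 to 16.2) includes equal levels.

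**Figure D1:**
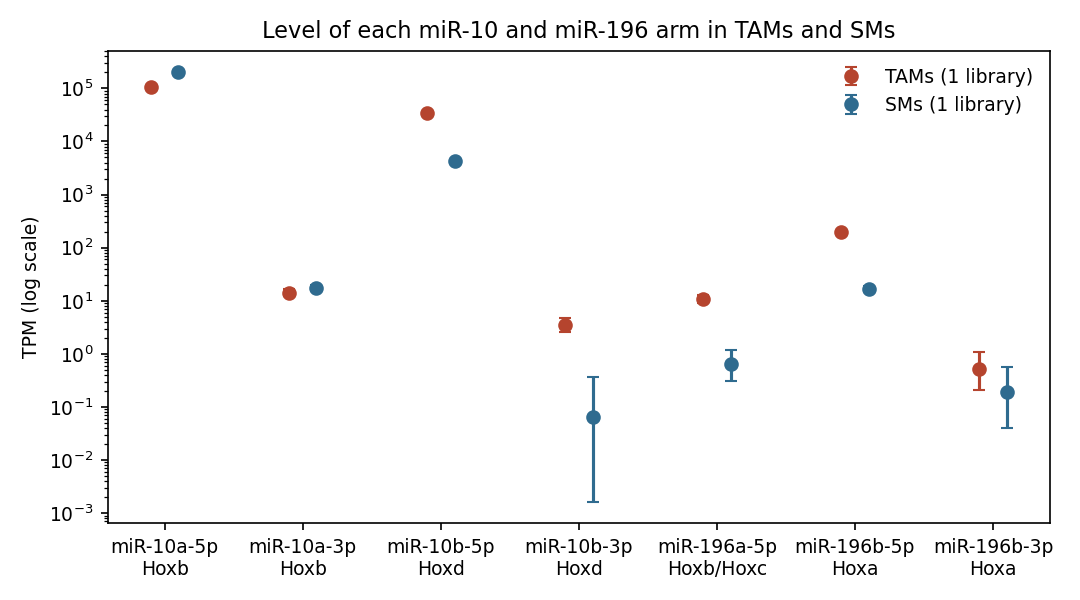
Level of each arm in TPM on a log axis in TAMs and SMs, with the Hox cluster of origin below its name, points for the 1 library of each group and bars for 95% intervals of counting error. miR-10a-5p lies at 104415 TPM for TAMs and 201354 TPM for SMs, and the 3p arms lie at 17.2 TPM or below.

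**Figure D2:**
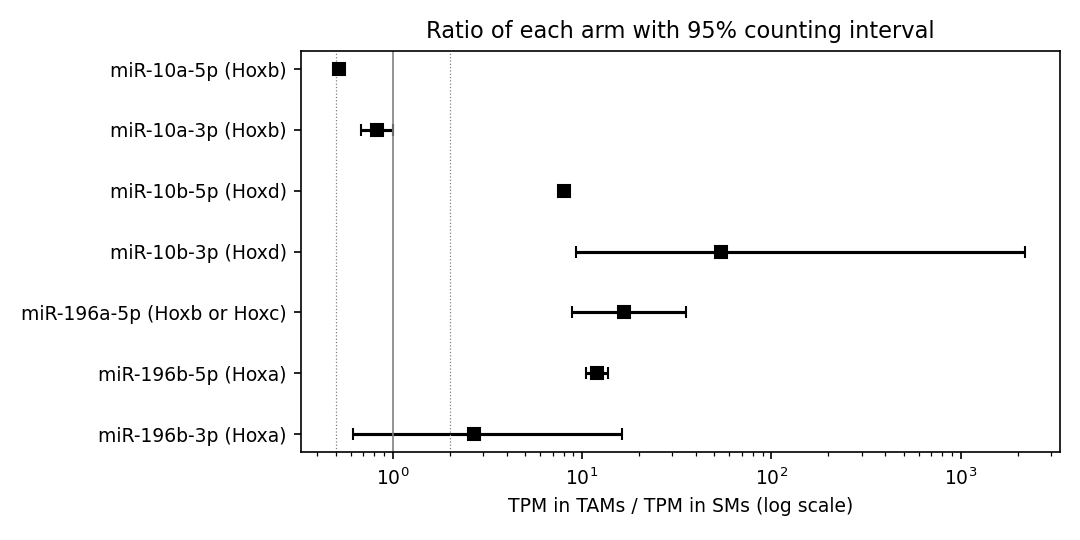
TPM ratio, TAMs over SMs, for each arm on a log axis, with 95% intervals of counting error, a solid line at equal levels and dotted lines at 2-fold. miR-10a-5p lies at 0.519 and miR-10a-3p at 0.826, with an interval for the 3p arm that ends at 0.999, next to equal levels. miR-10b-5p, miR-196a-5p and miR-196b-5p lie at 7.99, 16.7 and 11.96.

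Among miRNAs that reached 10 TPM in either library, on the scale of log2(TPM + 1), 3 members were at least 2-fold higher in TAMs, miR-10b-5p, miR-196a-5p and miR-196b-5p. Over all 264 miRNAs above this minimum, 24.2% were at least 2-fold higher and 32.6% at least 2-fold lower. No member was at least 2-fold lower. miR-10a-5p and miR-10a-3p were neither, and miR-10b-3p and miR-196b-3p lay below the minimum. miR-196a-5p passed the minimum only through TAMs, and the added 1 TPM lowers its ratio from 16.7 to 7.16, so it is counted here but not ranked. With totals of miRNA counts the balance over all miRNAs turned, to 74 higher and 68 lower in place of 64 and 86, with the same 3 members higher. The log2 ratio was 3.50 for miR-196b-5p, with 22 of the 264 above it, and 3.00 for miR-10b-5p, with 30 above it. For miR-10a-5p it was −0.95, with 88 miRNAs below it, beside a median of −0.36 over the 264. When library totals excluded the 10 most abundant miRNAs of either library, a scaling chosen after the values were seen, miR-10a-5p was 2.14-fold lower and passed 2-fold.

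**Figure D3:**
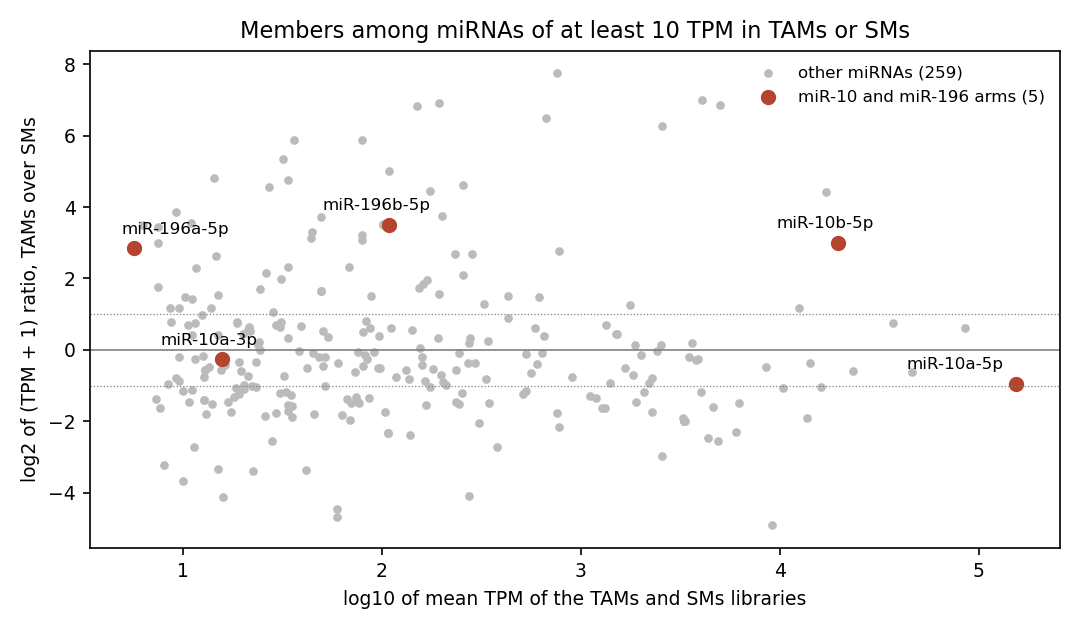
log2 of the ratio of TPM + 1 in TAMs over SMs against the log10 of the mean TPM of both libraries, for 259 other miRNAs in grey and the 5 members above the minimum in red, with dotted lines at 2-fold. miR-10a-5p lies farthest right and at −0.95, and miR-10b-5p lies at 3.00.

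The shift between the miR-10 paralogs can be read without any scaling between the libraries. Of the reads of miR-10a-5p and miR-10b-5p, miR-10b-5p made up 25.0% in TAMs (24.9 to 25.1%) and 2.12% in SMs (2.10 to 2.14%). There were 3.00 reads of miR-10a-5p for each read of miR-10b-5p in TAMs and 46.2 in SMs, a change of 15.4-fold (15.3 to 15.5) in their proportion. The 3p arms, whose sequences differ at 3 positions, gave the same order. miR-10b-3p made up 47 of 236 reads of both 3p arms in TAMs, 19.9% (15.0 to 25.6%), and 1 of 266 in SMs, 0.376% (0.00952 to 2.08%). For miR-196 no such shift could be told apart from counting error, with miR-196a-5p at 5.11% of the reads of both 5p arms in TAMs (4.32 to 5.98%) and 3.72% in SMs (1.80 to 6.73%).

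If every read of miR-10b-5p in SMs were a misassigned read of miR-10a-5p, those reads would equal 2.17% of the reads counted for miR-10a-5p. Taking that percentage of the miR-10a-5p count from miR-10b-5p in TAMs removes 30132 of its 464055 reads and leaves 32565 TPM. Against the full level in SMs this is a ratio of 7.47. The same subtraction for miR-196a-5p, 3.86% of the reads counted for miR-196b-5p, removes 103 of 144 reads and leaves 3.08 TPM, a ratio of 4.75. The count of miR-196a-5p is thus the more uncertain of these values.

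**Figure D4:**
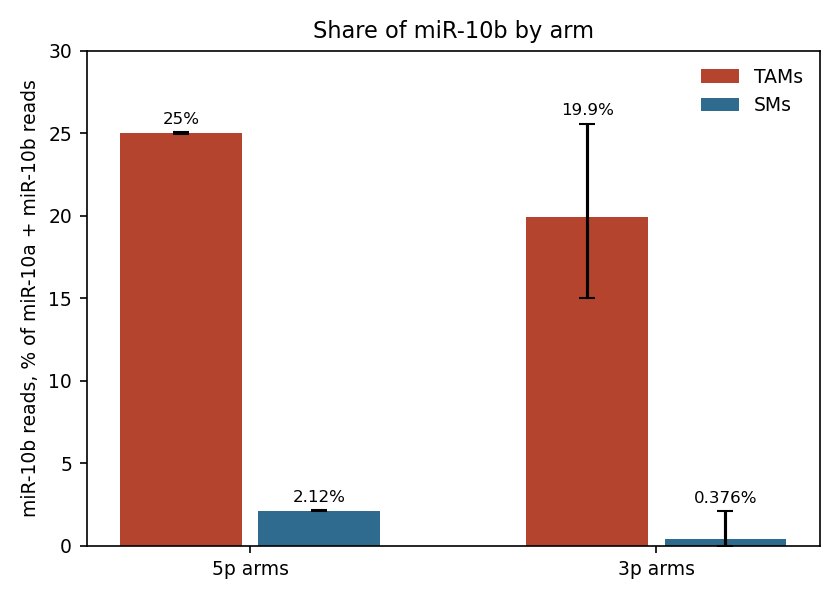
Reads of miR-10b as a percent of miR-10a and miR-10b reads, for the 5p arms and for the 3p arms, in TAMs and SMs, with exact 95% intervals as bars. In TAMs the share was 25.0% and 19.9%, and in SMs 2.12% and 0.376%.

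Pairs of miRNAs that differ by a single base were used to place this shift. Among 19 such pairs with both miRNAs above the minimum of 10 TPM, which share some members, the gap in log2(TPM + 1) ratio between miR-10a-5p and miR-10b-5p was 3.94, the third widest. Wider gaps were those of miR-99a-5p and miR-100-5p, 4.78, and of let-7a-5p and let-7e-5p, 4.65. The miR-196 pair was not ranked, because the 1 TPM added to the 0.648 TPM of miR-196a-5p in SMs reverses the order of its ratios, 16.7 for miR-196a-5p and 11.96 for miR-196b-5p without it. The miRNAs of 6 of the 19 pairs, miR-10a-5p and miR-10b-5p among them, had ratios on opposite sides of equal levels. This count depends on the scaling. With totals of miRNA counts every log2 ratio of TPM rises by 0.25, which is more than the distance of let-7a-5p, at −0.21, and miR-27a-3p, at −0.14. For miR-10a-5p, at −0.95, it is less.

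**Figure D5:**
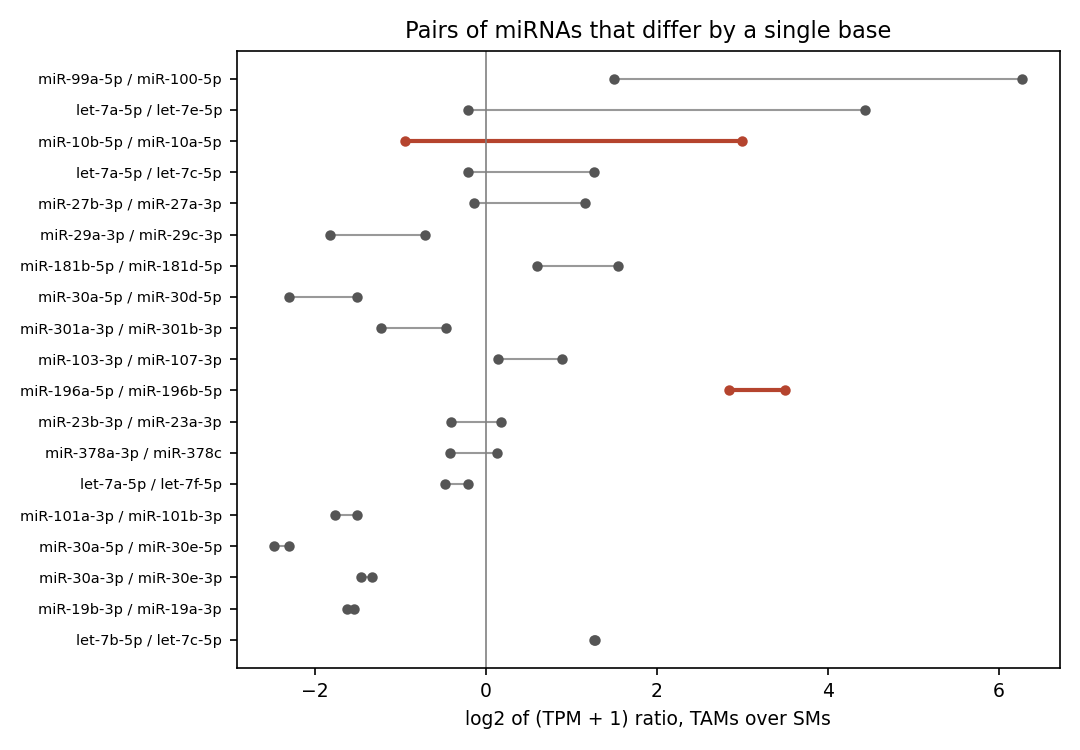
log2 of the ratio of TPM + 1 in TAMs over SMs for both miRNAs of each of 19 pairs that differ by a single base, joined by a line, with the miR-10 and miR-196 pairs in red. The line of miR-10a-5p and miR-10b-5p spans 3.94 and crosses equal levels, and both miR-196 paralogs lie on the side of TAMs, in an order that the added 1 TPM sets.

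The 5p arm dominated all 3 hairpins with both arms counted. mir-10a gave 7361 reads of its 5p arm for each of its 3p arm in TAMs and 11719 in SMs, so the 3p arm was 0.0136% of hairpin reads in TAMs (0.0117 to 0.0157%) and 0.00853% in SMs (0.00754 to 0.00962%). Among 104 hairpins with at least 10 reads of each arm in both libraries, 2 had a smaller minor arm than mir-10a in TAMs and 2 in SMs. The median minor arm was 7.11% in TAMs and 8.63% in SMs. The minimum of 10 reads leaves out hairpins with few reads of the minor arm, mir-10b among them, so these counts and medians depend on it. The proportion of 3p to 5p reads of mir-10a was 1.59-fold higher in TAMs (1.32 to 1.92), a change in proportion that 42.3% of the 104 hairpins exceeded in size. For mir-10b the 3p arm was 0.0101% in TAMs (0.00744 to 0.0135%) and 0.00149% in SMs (3.76e-05 to 0.00828%). For mir-196b it was 0.261% in TAMs (0.105 to 0.537%) and 1.15% in SMs (0.237 to 3.31%). The proportion of 3p to 5p reads was 6.81 times as high in TAMs for mir-10b. A binomial interval on the 3p reads, with the 5p reads taken as fixed, was 1.16 to 275, and a normal approximation 0.940 to 49.4. For mir-196b the proportion was 0.226 times that of SMs, with a binomial interval of the same kind of 0.0516 to 1.35 and a normal approximation of 0.0580 to 0.879. For both hairpins only 1 of the 2 intervals leaves out an equal proportion, and the values rest on 1 and 3 reads of the 3p arm in SMs.

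Other miRNAs of the Hox clusters and of the same superfamily were set beside the members. miR-615-3p, from the Hoxc cluster, had 11 reads in TAMs and 3 in SMs, below the minimum of 10 TPM. The superfamily of miR-10 includes miR-99, miR-100 and miR-125, which are grouped with it by sequence. All 5 of its other measured 5p arms were at least 2-fold higher in TAMs, beside 24.2% of the 264 miRNAs above that minimum. Their ratios ran from 2.84 for miR-99a-5p to 96.9 for miR-125b-5p, with a summed level of 39878 TPM against 1861 TPM. miR-100-5p, one of them, was picked by the study from these same libraries, so its direction is not independent evidence. miR-10a-5p was thus the only 5p arm among the 7 of this superfamily, miR-10b-5p included, with a lower level in TAMs.

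The miRNAs with the nearest log2(TPM + 1) ratio over the 2 libraries were looked up. For miR-10a-5p, among 57 miRNAs that reached 1000 TPM in either library, they were let-7g-5p, miR-140-3p and miR-16-5p, with ratios of TPM of 0.520, 0.529 and 0.488. For miR-10b-5p the nearest was miR-141-3p, one of the epithelial markers, with 1364 TPM against 199 TPM and a ratio of 6.85, 0.23 away on the log2 scale. The next, miR-99b-5p and let-7c-5p, were 1.41 and 1.74 away, so few abundant miRNAs had a ratio like that of miR-10b-5p. For miR-196b-5p, among 137 miRNAs that reached 100 TPM, they were miR-199b-3p and miR-199a-3p, which have the same sequence and near-equal counts, and miR-125a-5p. The ratios of these were 12.0, 12.1 and 13.8, and miR-199a-3p is one of the stromal markers. All 7 markers of epithelial cells, and both arms of mir-199a but not miR-143-3p among those of stromal cells, were thus higher by over 2-fold in the same library as miR-10b and miR-196, and their part in these results was not tested.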

How the data were processed

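Groups were taken from the sample labels. Per the labels, 3 µg of total RNA entered each TruSeq small RNA library. The authors deposited a raw count of reads for each known mature miRNA, and the deposited header states that variants of ±2 bp were added. The deposited TPM is that count divided by a library total larger than the summed miRNA counts, with no length correction. Bowtie2 is named, with no version, in the submitters' processing notes. The build and the miRBase release behind the table are not stated in any source used here. The p-value that the authors deposited, from a chi-square test of both libraries, and their ratio and mark columns were not used. Of the table, 2 lines were left out.

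Ratios of TPM have exact conditional binomial 95% intervals, and shares have exact Clopper-Pearson intervals (scipy 1.17.1 and pandas 2.3.3 under Python 3.11.15). The interval of the change in paralog or arm proportion is a normal approximation on the log scale. Counts past 2-fold used log2(TPM + 1), which understates the change of low miRNAs, and a minimum of 10 TPM in TAMs or SMs. Scaling alternatives were TMM (edgeR 4.0.16) and size factors (DESeq2 1.42.0, R 4.3.3), which were used for scaling only, and other totals. Pairs with a single base difference were compared base by base from the 5′ end over the shorter sequence, allowing up to 2 bases of difference in length. Hairpins come from RefSeq, and their neighbors from GENCODE M21, both on GRCm38. Plots used matplotlib 3.10.9. Intervals and calls were tested on simulated counts with counting error alone, the error that the intervals assume. This checks the calculation and not the spread between libraries, PCR copies or misassigned reads. Members, lists and alternatives were chosen with earlier results of these data known. All members are named, with the 3 miRNAs nearest in ratio, the 3 pairs with the widest gap, and list members as examples.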

Additional observations from a re-analysis of the deposited data

How the results depend on the processing

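No paired analysis was possible because there was a single library on each side. Scaling multiplies every ratio by 1 factor, which was 1.06 with TMM, 1.05 with DESeq2 size factors, 1.19 with totals of miRNA counts, 1.09 with such totals without the members, and 0.903 with totals without the 10 most abundant miRNAs. In that order the ratio was 0.550, 0.544, 0.618, 0.568 and 0.468 for miR-10a-5p, 8.47, 8.37, 9.51, 8.74 and 7.21 for miR-10b-5p, and 0.718, 0.710, 0.806, 0.741 and 0.611 for summed miR-10. For miR-10a-3p the ratio was, in the same order, 0.876, 0.865, 0.983, 0.903 and 0.745, so its distance from equal levels depends on the scaling. Summed miR-196 left its interval only with totals of miRNA counts, at 14.3. Totals of miRNA counts shift every log2 ratio of TPM by 0.25. Subtracting reads of the paralog in TAMs gave 7.47 for miR-10b-5p. The 3p arms alone gave a share of miR-10b of 19.9% in TAMs and 0.376% in SMs. Members at least 2-fold higher numbered 3, and 2 to 4 under the alternatives. Members at least 2-fold lower numbered 0, but 1, miR-10a-5p, without the 10 most abundant miRNAs and at 1.5-fold. Over all miRNAs, 64 higher and 86 lower became 102 and 115 without the minimum, 34 and 48 at 100 TPM, and 42 and 22 at 4-fold. They became 74 and 68 with totals of miRNA counts and 63 and 97 without the 10 most abundant miRNAs. The gap of miR-10a-5p and miR-10b-5p stayed the third widest among 51 pairs without the minimum and among 16 at 100 TPM. The ratios of miR-10a-5p, miR-10b-5p and summed miR-10 left their narrow counting intervals under every one of these scalings. Of 26 alternative values for the other single members, 24 stayed within the counting interval and no called direction changed. Those intervals are wide at low counts, such as 9.30 to 2194 for miR-10b-3p, beside scaling factors of 0.903 to 1.19. Staying within them is therefore no evidence of stability. Subtracting paralog reads in both libraries leaves 0 in SMs by construction, so it gave no ratio. The scaling without the 10 most abundant, the subtraction in TAMs and the 3p share were chosen after seeing the data. Depth limits the 3p arms of mir-10b and mir-196b, with 1 and 3 reads in SMs.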
